A study of Rattus norvegicus with 26 samples.

Results

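Soleus libraries with high and low Col1a1, the gene of the alpha-1 chain of type I collagen, were compared within the groups of a study of selectively bred rats. Within each of the 4 groups, libraries above the group median of Col1a1 CPM (the count divided by the library's total in megacounts) were selected on that value as the high set. Those below it form the low set, and the library at the median of a group of 5 was left out. This placed 24 of the 26 libraries, 12 high and 12 low. The split was made on measured Col1a1, so the sets are not treatments. A gene that differs between them is one whose counts varied with Col1a1 among rats of the same line and activity.

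All animals were aged female rats of generation 44 of lines bred for low or high running capacity (LCR and HCR). The soleus is a calf muscle that works in standing and is built mostly of slow fibres. The sedentary LCR group (8 libraries) and the sedentary HCR group (8) lived without a wheel. The running LCR group (5) and the running HCR group (5) were housed in pairs with a wheel for more than 5 months, so runners can share a cage and need not be independent. The labels give no allele or agent, no exact age, and no litter, date or batch. Counts come from libraries primed at the poly(A) tail and lie near the 3′ ends of transcripts. They are not per length, so levels were compared within a gene and not between genes.

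Type I collagen is the main fibrous protein of the connective tissue around muscle fibres and of tendon. Fibroblasts and tenocytes make it as procollagen, which is hydroxylated and folded in the endoplasmic reticulum, trimmed outside the cell, and built into fibrils with collagens III and V. Lysyl oxidases cross-link the fibrils, and small proteoglycans and glycoproteins such as decorin, periostin and fibronectin bind them. In aged muscle this matrix is known to thicken and stiffen.

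Total counts ran from 1099961 to 2523942 per library. In megacounts (M) they averaged 1.80 ± 0.403 M (SD, n = 12) in the high set and 1.66 ± 0.277 M (SD, n = 12) in the low set, a difference of 0.133 M (exact permutation within groups, 2-sided, p = 0.335). The titles of 2 running libraries, LCR running 5 in the high set and HCR running 5 in the low set, begin with the other line's name, and both were kept under their genotype. Myh7, the slow myosin heavy chain that defines soleus fibres, was at 7511 CPM or more in each of the 24 libraries. P-values measure the spread between libraries, taken as 1 animal each as the sample names describe.

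In sedentary LCR rats Col1a1 stood at 17.9, 27.5, 33.3 and 37.8 CPM in the low set and at 50.7, 72.9, 91.3 and 125 CPM in the high set. In sedentary HCR rats the low set held 26.9, 41.2, 68.0 and 74.5 CPM and the high set 80.3, 93.6, 98.6 and 179 CPM. Running LCR rats had 36.5 and 38.7 CPM in the low set, 60.7 CPM in the median library, and 66.7 and 98.5 CPM in the high set. These values do not overlap within a group because the split was made on them, and they carry no test. Running HCR rats had 17.3 and 23.9 CPM in the low set, 36.4 CPM in the median library, and 51.2 and 63.8 CPM in the high set. The ratio of the mean of the high set to that of the low set was 2.92 in sedentary LCR, 2.14 in sedentary HCR, 2.20 in running LCR and 2.79 in running HCR rats. The sets are relative to their group: sedentary HCR libraries at 68.0 and 74.5 CPM are low, while a sedentary LCR library at 50.7 CPM is high. The low and high libraries closest to each other were at 74.5 and 80.3 CPM in sedentary HCR rats and at 37.8 and 50.7 CPM in sedentary LCR rats. The sedentary HCR pair lay within each other's counting error, with 95% Poisson intervals of 63.5 to 86.9 and 67.0 to 95.4 CPM, which cover counting error only. So did the left-out LCR running 3 (60.7 CPM, 49.7 to 73.3) and LCR running 5 of the high set (66.7 CPM, 53.2 to 82.4).

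Of 34034 genes in the table, 10100 were counted highly enough to test, with Col1a1 itself left out. By edgeR's quasi-likelihood test with group as a term and Benjamini-Hochberg adjustment at 0.05, 3 genes were higher in the high set, 0.0297% of those tested, and 0 were lower, 0%. The 3 were Postn, Col5a1 and Lox, all genes of the collagen matrix. At an unadjusted p below 0.05 there were 1004 genes, 479 higher and 525 lower, and 28 had an adjusted p below 0.10, of which 23 were higher. DESeq2 called 36 genes, 27 higher and 9 lower, and limma voom called 2. Both the edgeR and the DESeq2 calls hold Postn, Col5a1 and Lox. In whole muscle, more matrix-producing cells and more RNA per cell cannot be told apart.

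Postn encodes periostin, a secreted protein of collagen-rich tissue that binds collagen and fibronectin. In sedentary LCR rats it measured 7.68, 8.73, 11.3 and 23.98 CPM in the low set and 30.8, 31.3, 37.7 and 117 CPM in the high set. In sedentary HCR rats the low set had 14.1, 19.2, 28.5 and 34.0 CPM and the high set 44.2, 66.6, 68.5 and 98.3 CPM. The sets did not overlap in either sedentary group. Running LCR rats had 11.8 and 21.0 CPM against 32.2 and 59.6 CPM, and running HCR rats 3.64 and 10.9 CPM against 26.4 and 39.4 CPM. All 12 high libraries stood above the mean of their group's low set. Postn rose by 1.71 on the log2 scale (SE 0.251, adjusted p = 0.0129), with a ratio of means of 4.19 in sedentary LCR, 2.89 in sedentary HCR, 2.80 in running LCR and 4.52 in running HCR rats. It was the 1 tested gene whose high libraries lay above the low libraries in all 4 groups, 0.0099% of genes tested, and 0 genes lay below in all 4. For sets apart in fewer groups, and for counts of high libraries above a low-set mean, the share of tested genes was not counted. Such counts below describe single genes only. Since the Postn values of the sets are apart in all 4 groups, a library with a set by both Postn and Col1a1 had to fall in the same set. The 23 of 23 such libraries that did so add no further evidence. A split by Postn leaves out HCR running 3 (10.9 CPM) as the median library of its group, in place of HCR running 2 (8.28 CPM). The Postn call was made in each of 24 fits that left out 1 library, with log2 differences from 1.51 to 1.80 and a highest adjusted p of 0.0485. It was lost with sets formed by Col1a2 (1.14, adjusted p = 0.246) or by Col3a1 (1.41, adjusted p = 0.113). It was also lost in sedentary groups alone (1.72, adjusted p = 0.12) and in LCR groups alone (1.87, adjusted p = 1.00). It was kept in running groups alone (1.71, adjusted p = 0.0468) and in HCR groups alone (1.56, adjusted p = 0.01655).

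Col5a1 encodes the alpha-1 chain of type V collagen, which is buried in type I fibrils and limits their width. In sedentary LCR rats it measured 20.5, 23.4, 24.8 and 24.8 CPM in the low set and 21.3, 31.5, 35.5 and 51.3 CPM in the high set. In sedentary HCR rats it measured 23.7, 28.9, 30.8 and 32.0 CPM against 33.7, 38.0, 42.8 and 64.6 CPM. Running LCR rats had 24.3 and 25.98 CPM against 25.1 and 41.9 CPM, and running HCR rats 17.7 and 18.2 CPM against 37.0 and 49.5 CPM. The sets were apart in both HCR groups and overlapped in both LCR groups. Col5a1 rose by 0.62 (SE 0.111, adjusted p = 0.0163), a fold of 1.54. The call was lost without LCR sedentary 5 (adjusted p = 0.0518), HCR sedentary 3 (0.0665) or LCR running 2 (0.0719), each the highest Col1a1 library of its group, while the log2 difference stayed between 0.57 and 0.67. It was lost too in fits of sedentary (0.55, adjusted p = 0.165), running (0.81, adjusted p = 0.356), LCR (0.52, adjusted p = 1.00) or HCR groups alone (0.73, adjusted p = 0.0648).

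Lox encodes lysyl oxidase, the enzyme that starts collagen and elastin cross-links. In sedentary LCR rats it measured 5.99, 8.73, 10.2 and 10.7 CPM in the low set and 14.4, 14.4, 25.4 and 37.8 CPM in the high set. In sedentary HCR rats it measured 5.77, 10.004, 10.1 and 10.7 CPM against 13.7, 21.0, 23.8 and 36.8 CPM. Running LCR rats had 9.28 and 13.8 CPM against 9.41 and 20.2 CPM, and running HCR rats 8.18 and 10.9 CPM against 10.2 and 10.995 CPM. The sets were apart in both sedentary groups and overlapped in both running groups. Lox rose by 1.01 (SE 0.187, adjusted p = 0.0254). The log2 difference was 1.31 in sedentary rats and 0.27 in runners, a difference of -1.03 (SE 0.376, unadjusted p = 0.00963, adjusted p = 0.995), which did not pass the test. The Lox call was lost in 9 of the 24 fits that left out 1 library. These were the fits without LCR sedentary 1, 2, 5 or 7, HCR sedentary 1, 2, 3 or 4, or LCR running 2, with adjusted p-values from 0.0518 to 0.0768. It was lost with limma voom (0.99, adjusted p = 0.0633), with the median libraries counted as high (0.94, adjusted p = 0.0981) and with sets formed by Col1a2 (0.77, adjusted p = 0.213). It was kept in sedentary groups alone (1.32, adjusted p = 0.0163) and lost in running (0.28, adjusted p = 0.947), LCR (1.03, adjusted p = 1.00) and HCR groups alone (0.99, adjusted p = 0.116).

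**Figure D1:**
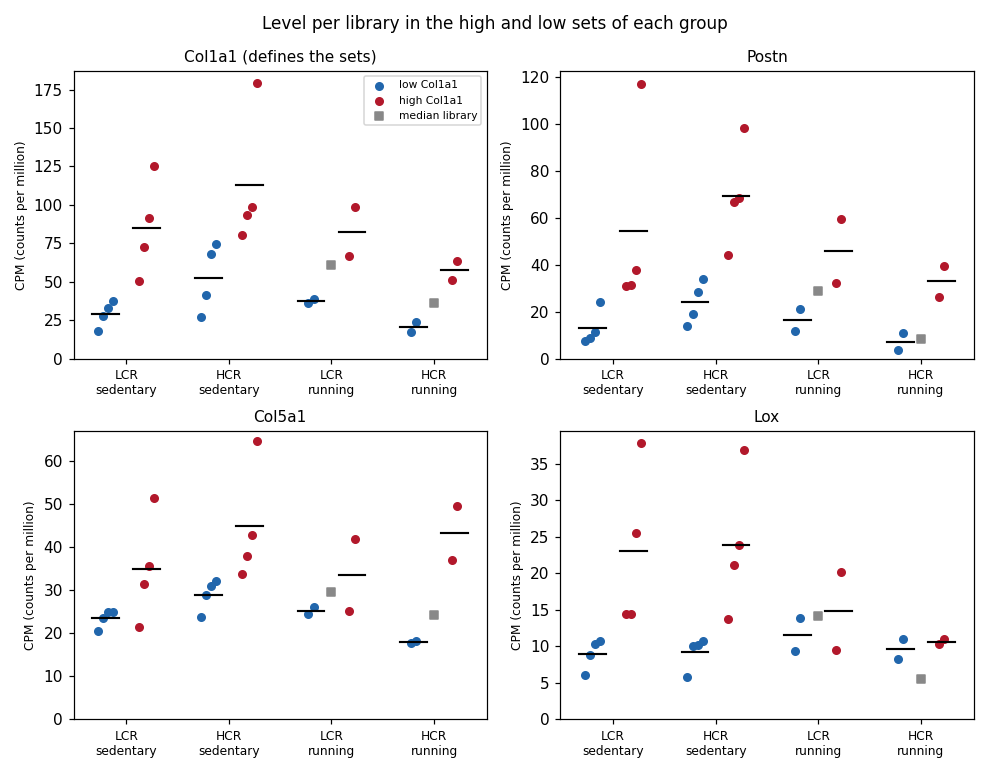
Level in CPM of Col1a1, Postn, Col5a1 and Lox in each library, by group, with low-set libraries in blue, high-set libraries in red, left-out median libraries as grey squares and the mean of each set as a line. Postn is apart in all 4 groups, from 3.64 to 34.0 CPM in the low set and from 26.4 to 117 CPM in the high set, while Lox overlaps in both running groups.

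The sequence before the start of a gene is shown for the called genes and for Col1a2, the partner chain of Col1a1, where RefSeq's table (build GRCr8) holds it. Col1a1 and Lox were not matched. Each line gives the 250 bases before the annotated start, 5′ to 3′ on the gene's strand, which is the plus strand for these genes. Capitals mark TATAAA or CCAAT on either strand, and CCAAT on the other strand reads ATTGG. Postn is at chr2:140677811-140678060, Col5a1 at chr3:31606630-31606879 and Col1a2 at chr4:33518307-33518556.
Postn: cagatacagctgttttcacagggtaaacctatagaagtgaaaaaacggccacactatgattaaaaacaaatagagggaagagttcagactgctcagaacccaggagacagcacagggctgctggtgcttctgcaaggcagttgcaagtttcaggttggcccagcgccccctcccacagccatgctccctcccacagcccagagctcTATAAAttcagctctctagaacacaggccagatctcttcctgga
Col5a1: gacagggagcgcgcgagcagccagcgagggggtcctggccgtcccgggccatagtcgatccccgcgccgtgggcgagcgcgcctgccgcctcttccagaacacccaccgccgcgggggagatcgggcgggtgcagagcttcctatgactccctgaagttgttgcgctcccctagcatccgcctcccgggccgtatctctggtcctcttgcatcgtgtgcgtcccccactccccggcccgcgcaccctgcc
Col1a2: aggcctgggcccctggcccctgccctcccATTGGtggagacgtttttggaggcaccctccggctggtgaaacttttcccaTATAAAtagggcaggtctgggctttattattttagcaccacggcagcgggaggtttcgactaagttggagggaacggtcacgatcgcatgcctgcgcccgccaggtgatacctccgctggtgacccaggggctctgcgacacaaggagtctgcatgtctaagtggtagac
Postn holds TATAAA 44 bases before its start and Col1a2 holds it 170 bases before, with CCAAT on the opposite strand 221 bases before. Col5a1 holds neither set of letters in this window. Of 33469 windows of this length, 12.9% hold TATAAA and 34% hold CCAAT on either strand, so matches of this kind are common. They describe the sequence and name no factor.

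The other fibrillar collagens stood higher in the high set but did not pass the test one by one. Of the 7 tested members of the list, 7 had a log2 difference above 0, 5 had an unadjusted p below 0.05, and 1, Col5a1, was called. Their median was 0.62, where all 10100 genes had a median of -0.0012 and 49.7% above 0. Col1a2, whose chain joins the alpha-1 chain in type I collagen, had 34.8, 67.3 and 92.7 CPM as the lowest, median and highest of the low set and 58.8, 97.5 and 167 CPM of the high set. The sets of Col1a2 overlapped in 3 of 4 groups (log2 difference 0.69, SE 0.155, adjusted p = 0.0872). Col3a1, the chain of the finer type III fibrils, had 9.09, 31.1 and 41.5 CPM against 24.3, 44.7 and 80.8 CPM (0.71, SE 0.190, adjusted p = 0.17). Splitting by Col1a2 or by Col3a1 in place of Col1a1 gave the same set for 18 and for 19 of 23 libraries. Col5a2, named after its values were seen, stood at 0.61 (adjusted p = 0.152). Summed over the list, fibrillar collagens made up 125 to 233 CPM in the low set and 161 to 558 CPM in the high set, with the highest sums in LCR sedentary 5 and HCR sedentary 3.

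Collagens that bind or link fibrils stood higher as well, and 0 were called. Of 8 tested microfibril and fibril-associated collagens, 8 were above 0 and 8 had an unadjusted p below 0.05, with a median of 0.67. Col6a1, a chain of the beaded microfibrils around muscle fibres, had a low-set median of 16.5 CPM and a high-set median of 25.6 CPM (0.70, SE 0.150, adjusted p = 0.0637). Chosen after their values were seen, Col6a2 stood at 0.48 (adjusted p = 0.116), Col6a3 at 0.65 (0.0872), Col12a1 at 1.01 (0.0872), Col16a1 at 0.78 (0.0792) and Col14a1 at 0.27 (0.303). In Col16a1 all 12 high libraries were above the mean of their group's low set. Of the basement membrane genes, 13 of 16 were above 0 with a median of 0.17 and 0 called. Col4a1, a chain of the sheet collagen that wraps fibres and vessels, had medians of 83.8 CPM in the low set and 102 CPM in the high set (0.29, adjusted p = 0.272).

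The cross-linking list had 4 of 4 tested members above 0, with a median of 0.85 and 1 called member, Lox. Loxl1, a lysyl oxidase relative that acts on elastic fibres, had 2.73, 4.21 and 7.82 CPM in the low set and 2.35, 8.78 and 14.7 CPM in the high set. It missed the threshold (0.96, SE 0.195, adjusted p = 0.051), as did Loxl2 (0.75, adjusted p = 0.16); both were named after their values were seen. Of the genes that fold and trim procollagen, 17 of 22 were above 0, with a median of 0.13 and 0 called. Serpinh1, the collagen chaperone HSP47, stood at 0.27 (adjusted p = 0.351), and P4ha1, a prolyl hydroxylase subunit, at -0.08 (adjusted p = 0.839). Fkbp10 and P3h4, 2 further helpers of collagen folding and hydroxylation named after their values were seen, stood at 0.62 (adjusted p = 0.247) and 0.56 (0.17). Hspa5, the general chaperone of the endoplasmic reticulum, stood at 0.14 (adjusted p = 0.527), and 22 of 28 genes of its list were above 0, with a median of 0.08.

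Among matrix glycoproteins and elastic fibre genes, 25 of 29 were above 0, 16 had an unadjusted p below 0.05, the median was 0.31 and Postn alone was called. Fn1, fibronectin, had medians of 130 CPM in the low set and 173 CPM in the high set (0.35, SE 0.0980, adjusted p = 0.175). Sparc, a collagen-binding protein of the matrix, had 12 of 12 high libraries above the mean of their group's low set (0.24, SE 0.0662, adjusted p = 0.17). Its level ran from 350 to 674 CPM in the low set and from 523 to 724 CPM in the high set. Members and relatives chosen after their values were seen were Fbn1, the fibrillin of elastic microfibrils (0.38, adjusted p = 0.0637), Vcan, a large proteoglycan (0.75, adjusted p = 0.0637), Ltbp2, a fibrillin-binding protein (1.56, adjusted p = 0.0718), Srpx2, a secreted sushi-repeat protein (1.15, adjusted p = 0.051), and Mgp, matrix Gla protein (0.35, adjusted p = 0.113). Srpx2 and Ltbp2 were sparse: each had a low-set library at 0 CPM and a low-set maximum of 6.42 and 7.38 CPM. Small leucine-rich proteoglycans, which coat fibrils, had 9 of 9 above 0 with a median of 0.39 and 0 called. Fstl1, a secreted glycoprotein, stood at 0.23 (adjusted p = 0.245, named after its values were seen). Among the proteoglycans Bgn, biglycan, was at 0.39 (adjusted p = 0.0637, named after its values were seen) and Dcn, decorin, at 0.15 (adjusted p = 0.607).

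Matrix proteases and their inhibitors had 13 of 16 above 0, with a median of 0.07 and 0 called. Timp1, an inhibitor of metalloproteinases, had medians of 3.38 and 6.10 CPM in the low and high sets (1.00, SE 0.271, adjusted p = 0.16). Mmp2, a gelatinase, stood at 0.55 (adjusted p = 0.245) and Mmp14, the membrane protease that activates it, at 0.45 (adjusted p = 0.206). Timp2, named after its values were seen, stood at 0.32 (adjusted p = 0.117). For the TGF-beta pathway, which drives collagen transcription in fibroblasts, 22 of 29 were above 0, with a median of 0.11 and 0 called. Its ligand Tgfb1 had medians of 4.87 and 6.66 CPM (0.59, SE 0.217, adjusted p = 0.349). The target gene Ccn2 stood at 0.17 (adjusted p = 0.669).

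**Figure D2:**
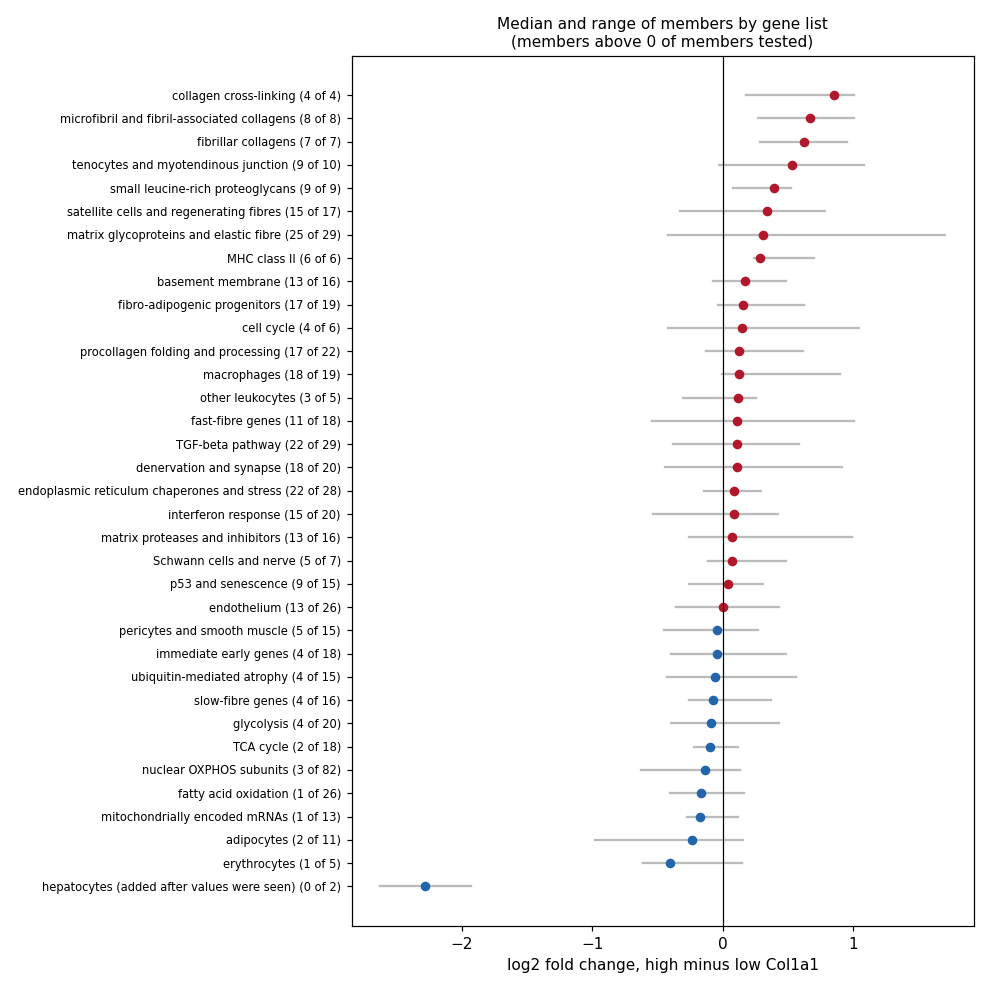
Log2 difference, high minus low set, of the tested members of each gene list, with the median as a point (red above 0, blue below) and the lowest to highest member as a line. Collagen and cross-linking lists have medians from 0.62 to 0.85, and lists of mitochondrial genes have medians below 0.

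Markers of the cell types that a piece of soleus can hold were read beside these values. Fibro-adipogenic progenitors, the resident fibroblasts of muscle, had 17 of 19 tested markers above 0 with a median of 0.15, and 0 were called. Their summed level was 1055 to 1643 CPM in the low set and 1103 to 2075 CPM in the high set. Pdgfra, their defining receptor, stood at 36.3 CPM in the low set and 37.7 CPM in the high set by median (0.05, SE 0.106, adjusted p = 0.93). Tendon and myotendinous junction markers had 9 of 10 above 0 with a median of 0.53, and summed to 544 to 1296 CPM in the low set and 518 to 2316 CPM in the high set. Their median was 0.74 in HCR groups alone and 0.20 in LCR groups alone, a difference that was not tested. The list also holds Egr1 and Ankrd1, which are not particular to tendon, so its sum is not a measure of tendon tissue. Tnmd, the tendon membrane protein, was counted too low to test, at 0 to 4.67 CPM in the low set and 0.669 to 13.7 CPM in the high set. HCR sedentary 1, a high library, held the most Tnmd, and with it 37.0 CPM of Comp, a tendon and cartilage matrix protein, where the other 11 high libraries held 7.53 CPM or less. Thbs4, an adhesive protein of tendon and muscle attachments, stood at 1.09 (SE 0.249, adjusted p = 0.105), and Prg4, lubricin, at 0.63 (adjusted p = 0.0872). Scx, the tendon transcription factor, stood at 0.17 (adjusted p = 0.623). Of the list's sum of 2316 CPM in LCR sedentary 5, Thbs4 made up 221 CPM and Prg4 162 CPM. Comp, Thbs4, Prg4 and Scx were named after their values were seen, and the part of tendon tissue in the collagen values was not tested. Without HCR sedentary 1, Postn and Col5a1 were called (adjusted p = 0.0255 each) and Lox was not (adjusted p = 0.066).

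Vessel markers showed no common direction. Endothelial genes split 13 above 0 and 13 below, with a median of 0.00031, and Pecam1, an endothelial junction protein, was at 0.01 (adjusted p = 0.984), a sign that turned in 11 alternative fits. Pericyte and smooth muscle genes had 5 of 15 above 0, and Acta2, smooth muscle actin, stood at -0.04 (adjusted p = 0.962), a sign that also turned in 9 alternative fits, column totals without scaling factors among them. Macrophage genes had 18 of 19 above 0 with a median of 0.13. In HCR groups alone 18 of 19 were above 0 with a median of 0.26, and in LCR groups alone 8 of 17 with a median of -0.02, a difference that was not tested. Cd68, a lysosomal protein of macrophages, stood at 0.19 (adjusted p = 0.735). Their summed level was 363 to 694 CPM in the low set and 465 to 1017 CPM in the high set, against 901 to 1469 CPM and 1000.2 to 1502 CPM for endothelial genes. Genes of MHC class II, which presents antigen, had 6 of 6 above 0 with a median of 0.29, and Cd74, its invariant chain (named after its values were seen), stood at 0.24 (adjusted p = 0.478). They summed to 68.3 to 160 CPM in the low set and 83.5 to 219 CPM in the high set. Adipocyte genes had 2 of 11 above 0 with a median of -0.23. Erythrocyte genes had 1 of 5 above 0, and Hba-a2, an alpha globin, stood at -0.41 (SE 0.257, adjusted p = 0.629). Schwann cell and nerve genes had 5 of 7 above 0 with a median of 0.07, and genes of other leukocytes 3 of 5 with a median of 0.11. In none of these lists was a gene called, and the part of these cells in the result was not tested.

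Transcripts of liver cells were present in some libraries, in a list of 16 genes added after the values were seen. Their summed level was 6.00 to 352 CPM in the low set, with a median of 33.1 CPM, and 3.01 to 36.5 CPM in the high set, with a median of 10.01 CPM. The 3 highest libraries, LCR running 1 (352 CPM), LCR sedentary 2 (135 CPM) and LCR sedentary 1 (97.8 CPM), were all in the low set. Apoc1, an apolipoprotein, stood at -1.93 (adjusted p = 0.164) and was named after its values were seen. The part of these transcripts in the result was not tested. Without those 3 libraries, edgeR called 0 genes, with 987 at an unadjusted p below 0.05. Postn then stood at 1.63, Col5a1 at 0.62 and Lox at 1.11, each with an adjusted p of 0.111, so the sizes were close to those in 24 libraries while the calls were lost.

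Satellite cells are the stem cells of muscle, and regenerating fibres carry embryonic myosin. Of 17 tested genes of this list, 15 were above 0, 6 had an unadjusted p below 0.05 and 0 were called, with a median of 0.34. In HCR groups alone 16 of 17 were above 0 with a median of 0.55, and in LCR groups alone 12 of 17 with a median of 0.12. That difference was not tested. The list's summed level was 1115 to 2462 CPM in the low set and 1475 to 4318 CPM in the high set, highest in LCR sedentary 5. Myh3, embryonic myosin heavy chain, had 400, 654 and 1285 CPM as the lowest, median and highest of the low set and 521, 1064 and 2266 CPM of the high set. Its sets were apart in 3 of 4 groups and overlapped in sedentary LCR rats (0.66, SE 0.209, adjusted p = 0.293). There LCR sedentary 7 of the low set had 1285 CPM, and LCR sedentary 4 of the high set had 521 CPM. Pax7, the satellite cell transcription factor, stood at 0.36 (adjusted p = 0.521). Nes, the intermediate filament nestin, had 12 of 12 high libraries above the mean of their group's low set (0.54, SE 0.111, adjusted p = 0.0568). Chodl, a membrane lectin, stood at 0.64 (adjusted p = 0.0637) and Ahnak2, a large scaffold protein, at 0.48 (adjusted p = 0.0718), and these 3 were named after their values were seen. Mki67, a protein of dividing cells, was too low to test, at 0 to 4.67 CPM in the low set and 0 to 7.13 CPM in the high set. Cdkn1a, the cell cycle inhibitor p21, ran from 35.8 to 228 CPM and from 14.9 to 309 CPM (0.17, SE 0.340, adjusted p = 0.933), and its sign turned in 4 alternative fits. Cell cycle genes had 4 of 6 above 0 with a median of 0.15, and p53 and senescence genes 9 of 15 with a median of 0.04.

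The remaining lists of stress and regulation also held 0 called genes. Denervation and synapse genes had 18 of 20 above 0 with a median of 0.11, but the direction turned in running groups alone (7 of 18, median -0.07) and in LCR groups alone (9 of 20, median -0.05). Interferon response genes had 15 of 20 above 0 with a median of 0.08. Immediate early genes had 4 of 18 above 0 with a median of -0.04. Genes of ubiquitin-mediated atrophy had 4 of 15 above 0 with a median of -0.06.

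Genes of muscle energy metabolism stood lower in the high set by small amounts. Of 82 tested nuclear subunits of oxidative phosphorylation, 79 were below 0, 35 had an unadjusted p below 0.05 and 0 were called, with a median of -0.14. Their sum was 28816 to 33774 CPM in the low set and 23951 to 33146 CPM in the high set, and the 3 lowest sums were in LCR sedentary 5, HCR sedentary 3 and HCR sedentary 5 of the high set. In sedentary groups alone 1 of 80 was above 0 with a median of -0.17, and in running groups alone 30 of 81 with a median of -0.04. Mitochondrially encoded mRNAs had 12 of 13 below 0 with a median of -0.17, and in running groups alone the direction turned, with 7 of 13 above 0 and a median of 0.02. Fatty acid oxidation genes had 25 of 26 below 0 with a median of -0.17. For these, 3 of 25 were above 0 with a median of -0.14 in sedentary groups alone, and 0 of 25 with a median of -0.26 in running groups alone. By line, 10 of 25 were above 0 with a median of -0.03 in LCR groups alone, and 1 of 25 with a median of -0.31 in HCR groups alone. The differences in these lists between sedentary and running groups, and between the lines, were not tested. The TCA cycle had 16 of 18 below 0 with a median of -0.10, and glycolysis 16 of 20 with a median of -0.09.

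The genes nearest the threshold on the lower side were chosen after their values were seen. Phyh, a peroxisomal enzyme of branched fatty acid breakdown, had 467, 514 and 570 CPM as the lowest, median and highest of the low set and 362, 437 and 502 CPM of the high set. Of the 12 high libraries, 0 were above the mean of their group's low set, and the sets were apart in 3 of 4 groups (-0.32, SE 0.0697, adjusted p = 0.0637). How many of all tested genes share such counts was not counted. Gpd1, glycerol-3-phosphate dehydrogenase, had medians of 30.9 CPM and 21.4 CPM (-0.54, adjusted p = 0.0831). Pfkm, the muscle phosphofructokinase, stood at -0.28 (adjusted p = 0.0831), Sdhaf2, an assembly factor of complex II, at -0.31 (0.0831) and Ckmt2, mitochondrial creatine kinase, at -0.28 (0.105). Vdac1, the outer membrane channel of mitochondria, stood at -0.27 and Uqcr11, a subunit of complex III, at -0.26 (adjusted p = 0.201 each). Ppp1r3c, a glycogen-targeting subunit of protein phosphatase 1, stood at -0.45 (adjusted p = 0.17), and Trim63, the ubiquitin ligase MuRF1, at -0.43 (adjusted p = 0.234).

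Genes of slow and fast fibres gave no call. Myh7 ran from 9947 to 12559 CPM in the low set and from 7511 to 12043 CPM in the high set (-0.22, SE 0.0833, adjusted p = 0.357), and 12 of 16 slow-fibre genes were below 0 with a median of -0.08. Myh2, the fast IIa myosin, varied widely, from 272 to 4671 CPM and from 511 to 4770 CPM (0.17, SE 0.374, adjusted p = 0.937), and its sign turned in 3 alternative fits. Of 18 fast-fibre genes, 11 were above 0, with a median of 0.11. Myl11, the fast regulatory light chain, had sets apart in 3 of 4 groups (0.50, SE 0.122, adjusted p = 0.116), while Tnni2 and Tnnt3, fast troponins, each stood at 0.34 (adjusted p = 0.752 and 0.629). These 3 were named after their values were seen.

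**Figure D3:**
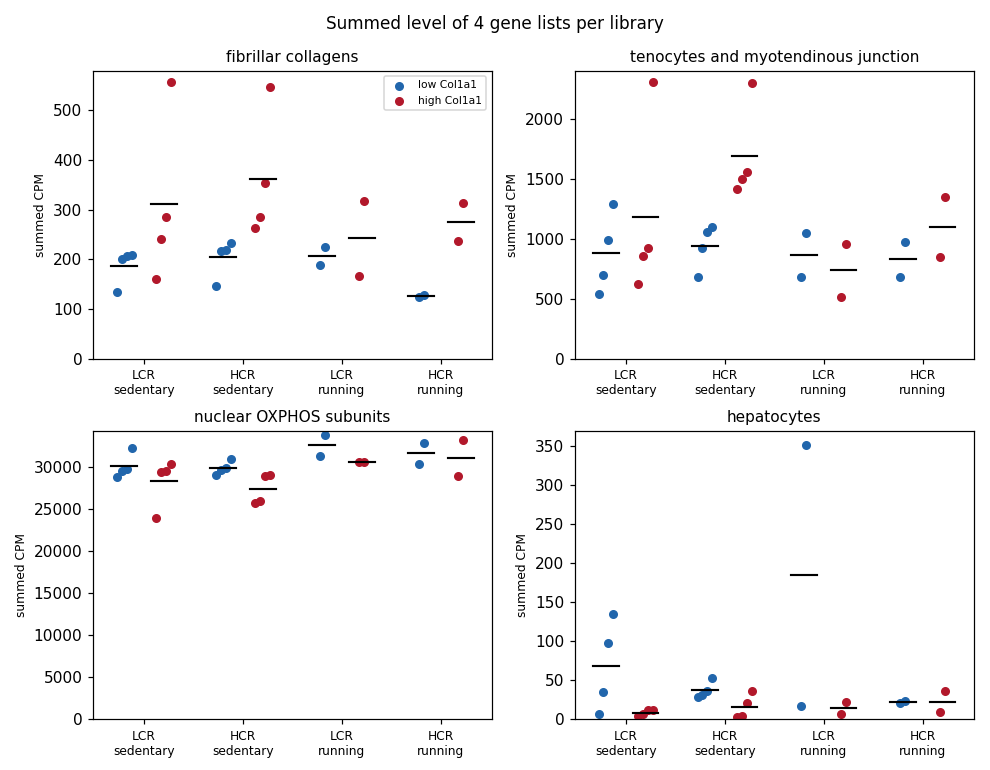
Summed CPM of 4 gene lists in each library, by group, with low-set libraries in blue, high-set libraries in red and the mean of each set as a line. Fibrillar collagens reach 558 CPM in the high set and 233 CPM in the low set, and liver transcripts reach 352 CPM in the low set and 36.5 CPM in the high set. The tendon and myotendinous junction list holds genes that are not particular to tendon, so its sum does not measure tendon tissue.

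Whether the sets differed alike in sedentary rats and runners, and in the 2 lines, was asked with interaction terms. For running minus sedentary, 0 of 10100 genes were called by edgeR, 0%, with 442 at an unadjusted p below 0.05, a smallest adjusted p of 0.455, and 1 call by DESeq2. For HCR minus LCR, 0 were called, 0%, with 525 at an unadjusted p below 0.05, a smallest adjusted p of 0.574, and 0 calls by DESeq2. Limma voom called 0 in each. Postn stood at 1.71 (SE 0.303) in sedentary rats and 1.70 (SE 0.494) in runners, a difference of -0.0088. No SE is given for that difference, since the SE as computed here is unreliable near 0. Postn stood at 1.86 (SE 0.365) in LCR and 1.56 (SE 0.359) in HCR rats, a difference of -0.30 (SE 0.521). Col5a1 stood at 0.55 (SE 0.133) in sedentary rats and 0.80 (SE 0.202) in runners, and at 0.52 (SE 0.159) in LCR and 0.72 (SE 0.157) in HCR rats. Neither gene's difference passed the test (adjusted p from 0.952 to 1.00 over the 4 tests).

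The number of calls rested on few libraries. LCR sedentary 5 and HCR sedentary 3 had the highest Col1a1 of their groups, at 125 and 179 CPM, and without both of them 1 gene, Postn, was called (1.44, adjusted p = 0.000491). Col5a1 then stood at 0.51 and Lox at 0.77 (adjusted p = 0.199 each). Leaving out 1 library at a time gave from 1 to 28 calls. There was 1 call without LCR sedentary 5, HCR sedentary 3 or LCR running 2, and there were 28 without LCR running 5, 19 without HCR sedentary 7 or LCR running 4, and 16 without LCR sedentary 4. LCR running 5 is a library with a conflicting title. Placing both such libraries under the title's line, with sets formed anew, gave 23 calls, and leaving both out gave 26, with Postn, Col5a1 and Lox in each. The log2 Col1a1 level as a continuous term over all 26 libraries gave 298 calls, 119 higher and 179 lower, again with those 3 genes, at 1.22 for Postn, 0.45 for Col5a1 and 0.68 for Lox per unit of log2 Col1a1.

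**Figure D4:**
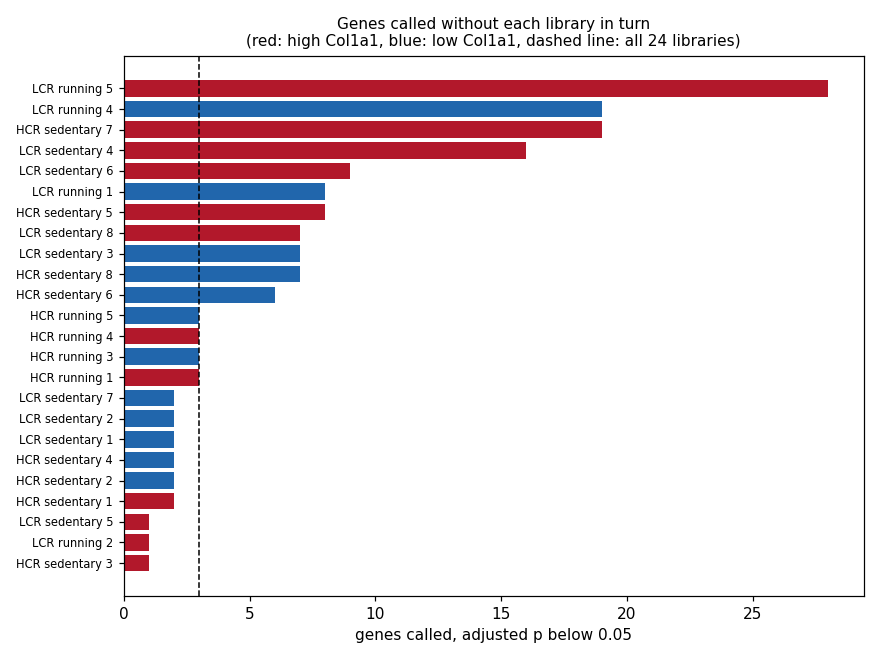
Number of genes called (edgeR, adjusted p below 0.05) when each library is left out in turn, as bars coloured by the set of the library left out (red high, blue low), with a dashed line at the 3 calls of all 24 libraries. The count ran from 1 to 28 and was highest without LCR running 5.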

How the data were processed

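Soleus RNA of 26 rats was sequenced with a 3′-end kit (QuantSeq FWD v2). What the authors deposited is a table of raw, whole-number counts for 34034 genes, and 0 of its columns belonged to no sample. STAR, featureCounts, UMI-tools, cutadapt, FastQC and MultiQC, without versions, and the assembly mRatBN7.2 are listed in the submitters' processing notes. Use of the strand in counting and collapsing of molecular identifiers are not given in the sources used here. Antisense, overlapping and near-identical genes are therefore uncertain. Depth was 1099961 to 2523942 counts, and intervals cover counting error only. No pair of libraries of a group agreed within sampling noise.

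Groups came from the description and genotype. CPM was the count over the column total. The fit took the counts of the 24 libraries in a set (edgeR 4.0.16, R 4.3.3): TMM factors, filterByExpr by group, robust quasi-likelihood F test of ~ group + set, Benjamini-Hochberg adjustment over all genes except Col1a1, threshold 0.05. The standard error (SE) is the size of the log2 difference over the square root of F, which is unreliable where the difference is near 0. The biological coefficient of variation was 0.150 with 19 residual degrees of freedom. Running and line were tested as interactions with the set. Alternatives used DESeq2 1.42.0, limma 3.58.1 voom, other factors, filters and splits, and left-out libraries. The fits were also run on simulated counts, with genes drawn independently and changes planted in the given sets. Such counts cannot test a split made on a measured gene or genes that vary together.

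Genes were named by a rule: the 12 called genes of greatest rise and the 12 of greatest fall, or fewer, among those whose mean log2 CPM was 2 or more, up to 6 called members of a list with at least 3, and 31 matrix, cell type and fibre genes whatever their p. Others are said to be named after their values were seen. The members, the 34 gene lists (744 of 751 places matched) and the tests were chosen with earlier results of these data known. The alternatives without liver-rich libraries and without the highest Col1a1 libraries were added after seeing the data. Promoter windows are RefSeq's on GRCr8, and no coordinates of the counted genes are given.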

Additional observations from a re-analysis of the deposited data

Results flagged for a closer look

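Within each study group, 32 measures (the total count, Col1a1 and the genes named whatever their p) were checked for 1 library far from the others, by the gap to its nearest neighbour over the range of the group. Of 128 checks, 18 stood out. The cut-off is meant to flag about 1 in 20 among independent, normally distributed values. CPM of related genes, some near 0, are not of that kind, so the 18 cannot be set against that rate. The part of any cause in these values was not tested. HCR sedentary 3, of the high set, was highest among 8 libraries in 10 of them. It had 179.1 CPM of Col1a1 (others 26.93 to 98.58), 80.83 of Col3a1 (19.88 to 47.29), 185.4 of Col4a1 (77.59 to 123.4), 64.58 of Col5a1 (23.73 to 42.83) and 46.75 of Col6a1 (12.3 to 28.25). It also had 76.07 CPM of Mmp14 (20.52 to 40.95), 56.66 of Pdgfra (30.05 to 39.35), 74.88 of Pecam1 (42.3 to 55.21), 41.6 of Acta2 (18.05 to 28.53) and 139.5 of Hba-a2 (37.55 to 75.37). LCR sedentary 5, also of the high set, was highest of 8 with 116.8 CPM of Postn (7.681 to 37.66), 2266 of Myh3 (462.4 to 1285), 6.918 of Mki67 (0.6 to 3.387) and 4.883 of Tnmd (0 to 2.063). Tnmd was also high in HCR sedentary 1, at 13.75 CPM (0 to 4.669), and Hba-a2 in LCR sedentary 2, at 110.6 CPM (49.51 to 76.53). Among 5 running LCR libraries, Tgfb1 was highest in LCR running 5, at 10.2 CPM (4.538 to 6.083), and Pecam1 lowest in LCR running 3, at 30.07 CPM (48.11 to 52.58).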

How the results depend on the processing

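The count of 3 calls stayed within 1.5 times under RLE factors, column totals alone, TMM-scaled Col1a1, limma voom, a total count term and median libraries counted as high. In running groups alone it was also 3, but 1 higher and 2 lower, and Postn was the 1 of the 3 genes kept. It was 5 with upper-quartile factors, 289 without a filter on low counts, 36 with DESeq2, 11 with the median libraries counted as low, and 298 with Col1a1 as a continuous term. It was 16 with sets by Col1a2, 15 with sets by Col3a1, 23 with the title's line, 26 without the 2 conflicting libraries, 1 in sedentary and 0 in LCR groups alone (413 at an unadjusted p below 0.05 by edgeR), and 8 in HCR groups alone. Without the 3 liver-rich libraries it was 0, and without the highest Col1a1 library of both sedentary groups 1; both were chosen after seeing the data. Leaving out 1 library gave 1 to 28 calls, 0 to 1 for either interaction, and a depth difference of 0.0667 to 0.181 M. The interactions gave 60 calls for running and 68 for line without a filter on low counts, and 1 for running with DESeq2. With the replicate number as a replicate block the count was 4, with Lox kept and Postn (adjusted p = 0.147) and Col5a1 (0.0538) lost. Same-numbered libraries did not deviate together on average (mean r of -0.0062 over 33 pairs, 3 over 0.1). That mean is taken over all genes, so it cannot show whether libraries of a number share something in single genes. The calls lost under the block stand as losses. The causes were not tested. Of 67 named genes, 60 kept their sign under every alternative that fitted them (38 to 46; 11 genes had fewer than 46). Of 34 lists, 12 had a median that turned sign under some alternative: pericytes, endothelium, macrophages, adipocytes, Schwann cells, denervation, cell cycle, slow and fast fibres, mitochondrial mRNAs, immediate early genes, and p53. The sign turned for P4ha1 (0.057 with sets by Col1a2, 0.11 in running groups), Pdgfra (-0.00036 with a total count term), Cd68 (-0.080 in HCR groups) and Myh2 (-0.050 with continuous Col1a1, -0.10 with sets by Col3a1, -0.022 in sedentary groups). It turned for Cdkn1a (-0.013 with a total count term, -0.60 in running groups, -0.20 in LCR groups, -0.086 without the highest Col1a1 libraries). It turned for Acta2 (0.023 with column totals, 0.049 with the replicate block, 0.061 in running and 0.011 in HCR groups, and -0.12 to 0.024 leaving out 1 library). Pecam1 turned to -0.037 with median libraries as high, -0.0022 with the title's line, -0.021 without the conflicting libraries, -0.017 in running groups, -0.019 in HCR groups, -0.020 without the liver-rich libraries and -0.0044 without the highest Col1a1 libraries, and ran from -0.035 to 0.060 leaving out 1 library. Genes under a few CPM, such as Tnmd and Mki67, are at the limit of this depth.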
